A study of Mus musculus with 6 samples.

Results

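A set of 10 serpin genes was followed in cultured mouse CD8+ effector T cells (Teff) with and without Scd-1, the stearoyl-CoA desaturase encoded by Scd1. The genes, listed by symbol for a link to the protection of cytotoxic T cells or for relation to such genes, were Serpinb9, Serpinb9b, Serpinb6a, Serpinb6b, Serpinb1a, Serpina3f, Serpina3g, Serping1, Serpine2 and Serpinf1. All 10 had a row in each of the 6 libraries, out of 69 genes with a Serpin symbol and 34745 genes in all. Of the 10, 9 had a mean of at least 1 FPKM (fragments scaled to gene length and library size) and entered the comparison of genotypes, and Serping1 did not.

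The comparison was between 3 WT and 3 Scd-1-/- libraries of Teff RNA. WT cells came from purchased C57BL/6J mice and Scd-1-/- cells from B6.129-Scd1tm1Ntam/J mice, which lack Scd-1 in every cell and are not stated to be littermates of the controls. All mice were males of 6 to 8 weeks. CD8+ T cells from the spleen, isolated with a MojoSort kit, received anti-CD3 at 5 μg/mL and anti-CD28 at 0.5 μg/mL with IL-2 at 100 U/mL for 3 days, then stayed in IL-2 for 3 further days and were harvested on day 6. Both genotypes were treated alike. The labels do not say whether libraries with different numbers came from separate mice or cultures, so the p-values measure the spread between these libraries, which may be technical.

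Serpins are a family of proteins that mostly block proteases: the protease cuts an exposed loop of the serpin and is trapped by it. Cytotoxic T cells store granzymes and perforin in granules, and granzyme or cathepsin that leaks into their own cytosol can kill them. Serpins of clade B lack a classical signal peptide and act largely inside cells, whereas most serpins of clades A, E, F and G are secreted, with Serpina3g an intracellular exception.

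Scd1 counts were 4272, 3074 and 3761 in the WT libraries and 30, 36 and 20 in the Scd-1-/- libraries, so each library matched its label. Library totals lay between 14034479 and 15866216 counts, so that a gene without a count could still hold up to 3 counts (between 0.189 and 0.214 CPM, counts scaled to library size), from counting error alone. The 6 markers of CD8+ T cells summed to 1885 to 2379 FPKM in WT and 1837 to 2108 FPKM in Scd-1-/- libraries, and the 4 markers of CD4+ T cells to at most 12.3 FPKM, nearly all of it Zbtb7b. Cd4 itself was at most 0.345 FPKM, with 8, 24 and 12 counts in WT and 5, 2 and 1 in Scd-1-/- libraries. Cd8a, a chain of the CD8 coreceptor, was at 43.2, 47.6 and 47.0 FPKM in WT and at 36.6, 27.9 and 33.7 FPKM in Scd-1-/- libraries, with no overlap and a log2 fold change of -0.46 ± 0.14 (adjusted p = 0.297, edgeR's quasi-likelihood test). Cd8b1, the other chain, overlapped between the genotypes and was lower in Scd-1-/- Teff within each number. On the first principal component (42.3% of the variance) replicate 1 of each genotype stood apart from replicates 2 and 3, and the second (36.2%) parted the genotypes. Results that rest on replicate 1 are therefore given with and without it.

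In each of the 3 replicate numbers, 6 serpin genes (Serpinb9, Serpinb9b, Serpinb6a, Serpinb6b, Serpinb1a and Serpine2) were higher in Scd-1-/- than in WT Teff, and 3 (Serpina3f, Serpina3g and Serpinf1) were lower. Such a common direction was found in 45.2% of the 9627 genes tested, higher in 20.6% and lower in 24.7%. For 6 of the 9 genes the libraries of the genotypes did not overlap, with Serpinb9, Serpinb9b, Serpinb6a and Serpine2 above and Serpina3f and Serpinf1 below. This held for 16.0% of all genes tested, 7.67% above and 8.32% below. Without regard to replicate number, 0 of the 9 passed the study's thresholds, an absolute log2 fold change of at least 1 with an unadjusted p under 0.001, and 0 had a Benjamini-Hochberg adjusted p under 0.05 in edgeR's quasi-likelihood test, where 0.738% and 0.114% of all genes tested did. An unadjusted p under 0.05 was reached by 6 of the 9 in that test, against 10.1% of all genes, and DESeq2's Wald test put 4 past the thresholds (1.67% of all genes), 2 higher (1.08%) and 2 lower (0.592%), and 5 under an adjusted p of 0.05 (2.76%). With the replicate number as a block in the edgeR fit, 4 of the 9 passed the thresholds and an adjusted p under 0.05 was reached by 7, against 1.91% and 4.7% of all genes. Serpinb9 and Serpine2 passed as higher (1.19% of all genes) and Serpina3f and Serpinf1 as lower (0.717%). Correlations between libraries set replicate 1 apart but did not clearly tell numbers 2 and 3 apart, so their pairing rests on the labels.

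The filter on low values also moved the call. When the fit held all 17192 genes with a count, Serpinb9b, Serpine2, Serpina3f and Serpinf1 passed the thresholds (0.861% of those genes), 2 higher (0.541%) and 2 lower (0.32%), and Serpinf1 alone had an adjusted p under 0.05 (0.489%). The median log2 fold change of the 9 members was 0.85, and that of all genes tested was -0.0005. Summed over the 10 members, the level was 116, 72.9 and 80.9 FPKM in WT replicates 1, 2 and 3 and 119 to 134 FPKM in the Scd-1-/- libraries. Because these are bulk libraries, less RNA per cell and fewer cells that carry it cannot be told apart for any of these genes.

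**Figure D1:**
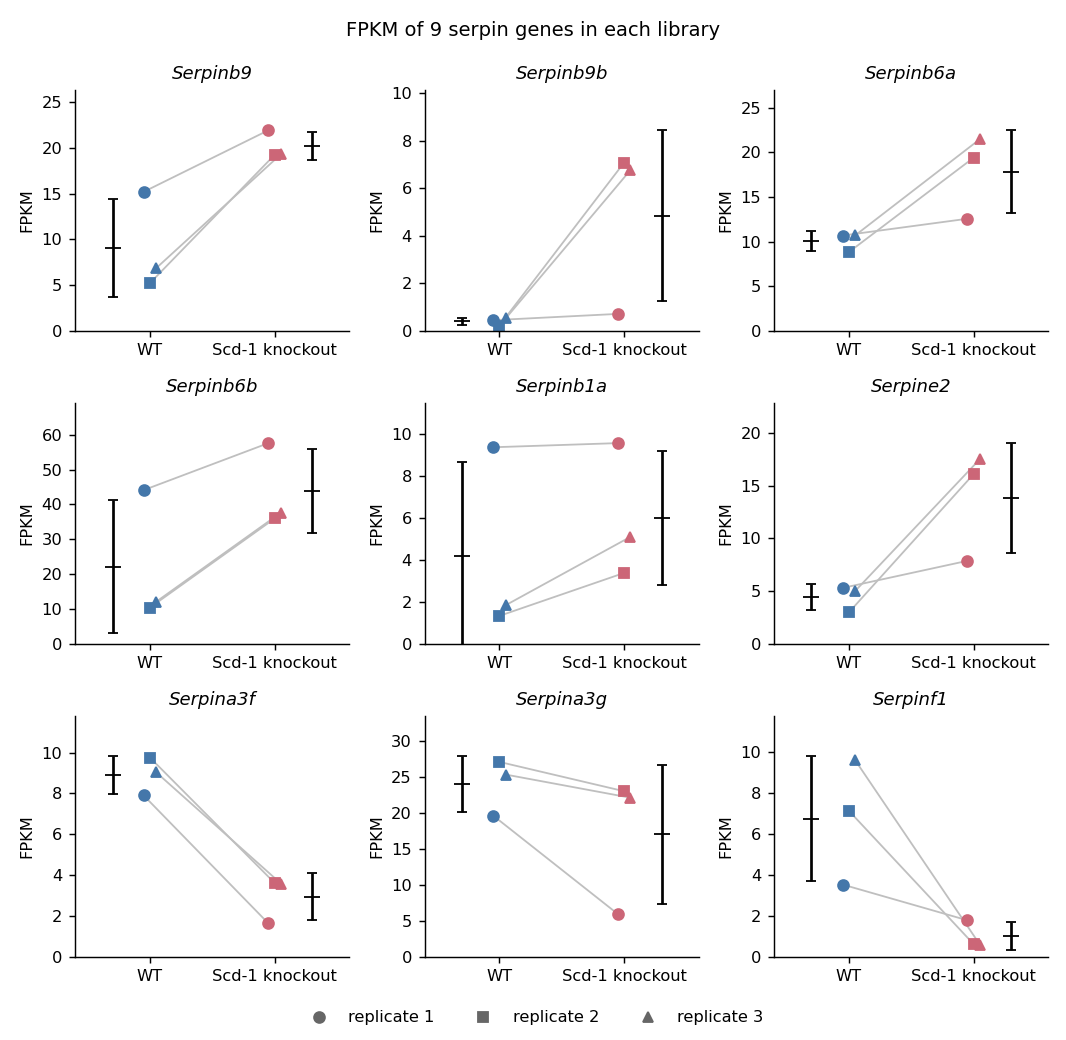
FPKM of the 9 detected serpin genes in each library, with 1 panel per gene, WT in blue, Scd-1-/- in red and a grey line between libraries of the same replicate number. Black bars give the mean ± SD of 3 libraries and each axis starts at 0. In replicate 1 Serpinb6b and Serpinb1a were high in both genotypes, and Serpinb9b stayed near its WT level.

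Serpinb9 and Serpinb6b are known as inhibitors of granzymes. Serpinb9 blocks granzyme B, and mouse Serpinb6b has been described as an inhibitor of granzyme A. Both lie on chromosome 13 (GRCm38, GENCODE M21), Serpinb6b at chr13:32965209-32979067 and Serpinb9 at chr13:33003250-33017957, each a protein-coding gene on the plus strand. Serpinb9b at chr13:33027416-33041884 is the next serpin with a count and a close relative of Serpinb9.

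Serpinb9 stood at 15.2, 5.21 and 6.85 FPKM in WT replicates 1, 2 and 3 and at 21.9, 19.3 and 19.3 FPKM in the Scd-1-/- libraries of the same numbers. The Scd-1-/- libraries lay close together and all above WT, while WT replicate 1 stood well above the other WT libraries. The log2 fold change was 1.16 ± 0.38 (SE, n = 3 per group, adjusted p = 0.361, edgeR's quasi-likelihood test). With the replicate block it was 1.32 ± 0.24 (adjusted p = 0.0271), past the thresholds. Leaving out WT replicate 1 gave a log2 fold change of 1.78, past the thresholds as well, whereas it was 0.88 without WT replicate 2 and 0.98 without WT replicate 3, both under the fold threshold.

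Serpinb6b was the serpin with the highest mean level over the 6 libraries. Its values were 44.1, 10.3 and 12.02 FPKM in WT and 57.6, 35.9 and 37.6 FPKM in Scd-1-/- libraries. WT replicate 1 lay above Scd-1-/- replicates 2 and 3, so the groups overlapped, although the Scd-1-/- libraries held 1.31, 3.47 and 3.13 times the level of the WT library of their own number. The log2 fold change was 0.99 ± 0.55 (SE, n = 3, adjusted p = 0.610, edgeR's quasi-likelihood test) and 1.29 ± 0.26 with the replicate block (adjusted p = 0.0360 in the same test). The blocked fit missed the thresholds through its unadjusted p of 0.00123, and without WT replicate 1 the log2 fold change was 2.01 and passed them. It was 0.65 and 0.68 without WT replicates 2 and 3, 0.74 without Scd-1-/- replicate 1, and not past the thresholds in any of these.

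Serpinb9b was low in WT Teff. It had 22, 10 and 24 counts (0.446, 0.219 and 0.519 FPKM) in WT and 36, 325 and 349 counts (0.711, 7.08 and 6.76 FPKM) in Scd-1-/- libraries. Nearly all of the difference lay in Scd-1-/- replicates 2 and 3, since replicate 1 held 1.59 times the level of its WT counterpart, against 32.3 and 13.04 times in the others. Its log2 fold change was 3.63 ± 0.82 (SE, n = 3, adjusted p = 0.176, edgeR's quasi-likelihood test), the greatest in size among the 9 genes, and 3.26 with the block (adjusted p = 0.0385). Without Scd-1-/- replicate 1 it was 4.14 and passed the thresholds.

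Serpinb9b and Serpinb9 are neighbours and close relatives with unlike levels, and the 150 bases before the RefSeq start site of each (GRCm38.p6, plus strand) are shown to compare them. The Serpinb9 window is chr13:33004391-33004540 and the Serpinb9b window is chr13:33027264-33027413. Capitals mark, on either strand, GAAA followed after any 2 bases by GAAA, the core pair that interferon regulatory factors recognise in interferon-stimulated response elements.
Serpinb9: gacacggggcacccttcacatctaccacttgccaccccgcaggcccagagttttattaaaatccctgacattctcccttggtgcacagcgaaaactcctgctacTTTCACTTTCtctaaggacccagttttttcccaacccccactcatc
Serpinb9b: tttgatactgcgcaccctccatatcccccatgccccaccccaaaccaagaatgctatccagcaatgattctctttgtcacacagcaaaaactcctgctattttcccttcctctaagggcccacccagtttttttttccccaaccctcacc
The match of Serpinb9 began 46 bases before its start site, and the window of Serpinb9b held none. This motif was in 3.44% of 32851 RefSeq windows of 250 bases before and 50 after a start site. The longest transcripts of Serpinb9 and Serpinb9b were 66.8% identical and shared no stretch of 100 bases.

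Serpinb6a and Serpinb1a complete the clade B genes. Serpinb6a, a relative of the human inhibitor of cathepsin G and thrombin, lies on the minus strand at chr13:33917918-34002794. Serpinb1a, which inhibits neutrophil elastase and cathepsin G, lies on the minus strand at chr13:32842092-32851185.

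Serpinb6a was even across WT Teff, at 10.7, 8.81 and 10.7 FPKM, and stood at 12.5, 19.4 and 21.5 FPKM in Scd-1-/- Teff. The groups did not overlap, with Scd-1-/- replicate 1 near the WT level. Its log2 fold change of 0.85 ± 0.21 (SE, n = 3) missed the thresholds (adjusted p = 0.219, edgeR's quasi-likelihood test), and with the replicate block it was 0.82 (adjusted p = 0.0455). Without Scd-1-/- replicate 1 it was 1.04 and passed the thresholds, which no other library left out gave. Exons of Serpinb6a overlap those of Nqo2, Ripk1 and 1110046J04Rik on the opposite strand, and whether the counting used strand is unclear, so reads of these genes may have been mixed. Nqo2 had a log2 fold change of 0.69 ± 0.29 and Ripk1 of -0.05 ± 0.26, against the 0.85 of Serpinb6a.

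Serpinb1a followed the same order of libraries as Serpinb6b. It was at 9.35, 1.32 and 1.83 FPKM in WT and at 9.55, 3.37 and 5.09 FPKM in Scd-1-/- libraries. Replicate 1 was the highest library of each genotype and hardly differed between genotypes (1.02 times), whereas in replicates 2 and 3 Scd-1-/- Teff held 2.55 and 2.78 times the WT level. The groups overlapped, and the log2 fold change of 0.53 ± 0.75 (SE, n = 3, adjusted p = 0.884, edgeR's quasi-likelihood test) had the widest error relative to its size. The block gave 0.91 (adjusted p = 0.127), and the value shifted with each library left out: it was 1.97 without WT replicate 1, 0.02 without Scd-1-/- replicate 1, 0.11 and 0.17 without WT replicates 2 and 3, and 0.82 and 0.64 without Scd-1-/- replicates 2 and 3.

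The 5 clade B genes thus shared a direction within each number but fell into different patterns over libraries. In replicate 1 Serpinb9, Serpinb6b and Serpinb1a were high already in WT, whereas Serpinb9b and Serpinb6a were low in Scd-1-/- relative to replicates 2 and 3. When replicates 2 and 3 were fitted alone, with 2 libraries a group, 8 of the 9 tested members passed the thresholds (3.83% of all genes), 6 higher (2.25%) and 2 lower (1.58%), and 8 had an adjusted p under 0.05 (12.6%). Serpina3g was the exception.

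**Figure D2:**
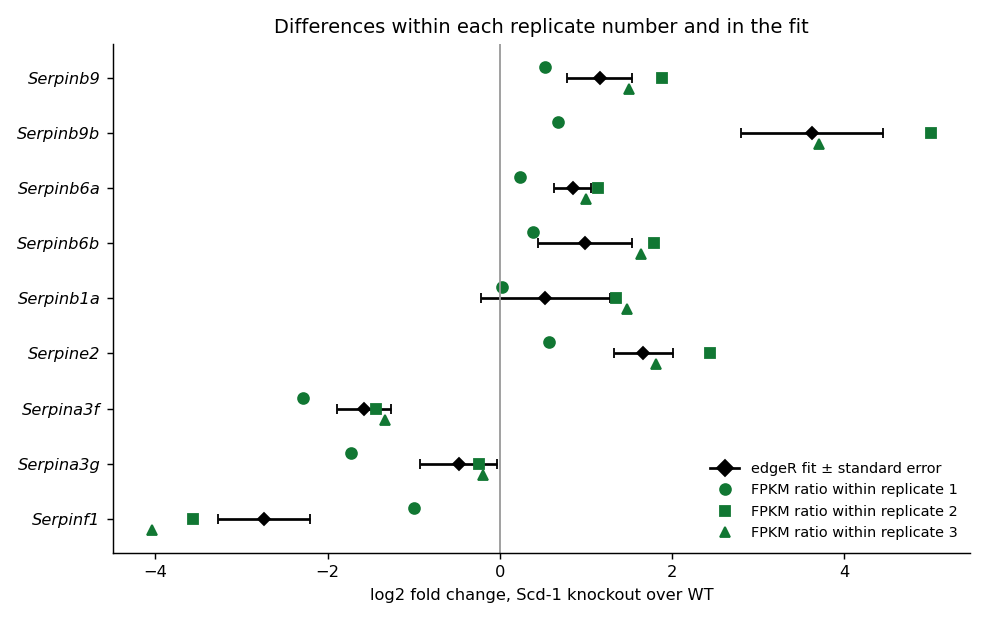
Log2 fold change, Scd-1-/- over WT, of the 9 serpin genes: green symbols give the FPKM ratio within each replicate number, and black diamonds the edgeR estimate ± SE. All 3 symbols lie on the same side of 0 for every gene, and replicate 1 lies closest to 0 for all but Serpina3f and Serpina3g, where it lies farthest.

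All 5 clade B members lie in 1 serpin cluster of chromosome 13, between chr13:32842092 and chr13:34002794, which holds 16 serpin genes. Only 6 of these had a count in any library, and all 6 were tested. The sixth, Serpinb1b, a relative of Serpinb1a outside the list, was at 1.48, 0.588 and 0.290 FPKM in WT and at 2.61, 1.42 and 1.64 FPKM in Scd-1-/- libraries. It too was higher within each number, with a log2 fold change of 1.27 ± 0.57 (SE, n = 3, adjusted p = 0.523, edgeR's quasi-likelihood test) and 1.40 with the block (adjusted p = 0.0769). The 6 expressed serpins of the cluster were thus each higher in Scd-1-/- Teff within all 3 numbers, a direction shared by 20.6% of all genes tested, and 5 of these 6 are members, which were chosen with earlier results of these data known. Of 8 tested genes that are not serpins and lie in or next to the cluster, 0 passed the thresholds in edgeR's quasi-likelihood test with or without the block or by DESeq2, and 0 had groups that did not overlap. Of these 8, 1 (Nqo2) had an unadjusted p under 0.05, and an adjusted p under 0.05 with the block. Their log2 fold changes lay between -0.51 and 0.69 with a median of -0.01. The difference between serpins and neighbours was not tested.

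Serpina3f and Serpina3g are clade A3 genes of chromosome 12. Serpina3g, also called Spi2A, is an inhibitor of cysteine cathepsins that acts inside T cells, and Serpina3f is a close relative. Serpina3f lies at chr12:104214544-104221129 and Serpina3g at chr12:104236245-104241939, both on the plus strand. The cluster around them holds 28 serpin genes, of which 4 had a count and these 2 were tested.

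Serpina3f was at 7.90, 9.76 and 9.04 FPKM in WT and at 1.62, 3.61 and 3.58 FPKM in Scd-1-/- libraries. Every Scd-1-/- library lay below every WT library, and within a number WT held 4.87, 2.71 and 2.52 times the Scd-1-/- level. The log2 fold change was -1.58 ± 0.31 (SE, n = 3, adjusted p = 0.118, edgeR's quasi-likelihood test). The unadjusted p of 0.00105 missed the threshold of 0.001 narrowly. With the replicate block it was -1.64 ± 0.22 (adjusted p = 0.00984), the smallest adjusted p among the members in that fit. Without Scd-1-/- replicate 1 it was -1.29 and passed the thresholds, and without any other single library it did not.

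Serpina3g was the most abundant member in WT Teff by its mean. It was at 19.6, 27.1 and 25.3 FPKM in WT and at 5.90, 22.99 and 22.1 FPKM in Scd-1-/- libraries. The low value in Scd-1-/- replicate 1 carried the difference: replicates 2 and 3 held 1.18 and 1.146 times the Scd-1-/- level in WT. The log2 fold change was -0.47 ± 0.45 (SE, n = 3, adjusted p = 0.806, edgeR's quasi-likelihood test), -0.67 with the block (adjusted p = 0.220), and -0.07 without Scd-1-/- replicate 1. It lay between -0.38 and -0.76 without any other single library.

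The longest transcripts of Serpina3f and Serpina3g were 87.1% identical, and 20 windows of 100 bases were the same in both. How reads that match both genes were counted is not given in the sources used here, so the split between these genes is uncertain. Serpina3g exceeded Serpina3f in all 6 libraries, and of the 2 genes Serpina3f alone had groups that did not overlap.

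The 150 bases before the RefSeq start site of each gene (GRCm38.p6, plus strand) are shown because both hold the same motif. The windows are chr12:104214394-104214543 for Serpina3f and chr12:104235997-104236146 for Serpina3g. Capitals mark TTCNNNGAA, the gamma-activated sequence (GAS) that STAT proteins bind, which reads the same on both strands.
Serpina3f: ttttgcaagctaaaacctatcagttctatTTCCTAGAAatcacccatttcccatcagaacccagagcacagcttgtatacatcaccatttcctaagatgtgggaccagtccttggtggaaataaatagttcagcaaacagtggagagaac
Serpina3g: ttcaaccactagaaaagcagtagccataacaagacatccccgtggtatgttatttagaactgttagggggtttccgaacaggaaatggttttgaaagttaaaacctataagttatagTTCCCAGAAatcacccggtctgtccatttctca
The match began 121 bases before the start site of Serpina3f (210 before a second RefSeq start of that gene) and 33 bases before that of Serpina3g. It was in 8.3% of the 32851 windows, and in 3 of the 8 members that had a window. The third was Serpinb6a, whose window at chr13:34002795-34002944 (minus strand) held the GAS next to a match of the GAAA pair that shares 3 bases with it, both in capitals below.
Serpinb6a: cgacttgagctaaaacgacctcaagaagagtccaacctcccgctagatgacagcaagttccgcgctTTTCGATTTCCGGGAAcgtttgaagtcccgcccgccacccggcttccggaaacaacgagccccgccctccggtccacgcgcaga
A further GAS of Serpinb6a began after that start site, and the window of its other RefSeq start held neither motif. Serpinb6a was higher and Serpina3f lower in Scd-1-/- Teff, so the members that share the GAS did not share a direction. A further 6 patterns of letters were searched: AGGTGTGA and GGTGTG of T-box factors, CTTTGA of TCF factors, AGGAAG of ETS factors, TGTGGT of RUNX factors and TGANTCA of AP-1. Of these, AGGTGTGA (1.28% of windows) and TGANTCA (7.81%) were found for 0 of the 8 members with a window, AGGAAG (35.4%) for 6, TGTGGT (16.8%) for 4, GGTGTG (19.0%) for 3 and CTTTGA (16.0%) for 1. A match is a description of the letters and not a binding site.

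Serpine2 and Serpinf1 are secreted serpins. Serpine2, also called protease nexin-1, inhibits thrombin and urokinase, and lies on the minus strand at chr1:79794197-79861180. Serpinf1 encodes pigment epithelium-derived factor, a serpin without inhibitory activity, on the minus strand at chr11:75409769-75422701.

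Serpine2 was at 5.29, 2.97 and 5.00 FPKM in WT and at 7.87, 16.1 and 17.5 FPKM in Scd-1-/- libraries. All Scd-1-/- libraries exceeded WT, with 1.49, 5.42 and 3.51 times its level within a number and with replicates 2 and 3 well above replicate 1. A log2 fold change of 1.67 ± 0.34 (SE, n = 3, adjusted p = 0.133, edgeR's quasi-likelihood test) was found. With the replicate block it was 1.63 ± 0.31 (adjusted p = 0.0320), past the thresholds, and 1.95 without Scd-1-/- replicate 1, past them as well.

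Serpinf1 differed in the other direction. It was at 3.53, 7.14 and 9.62 FPKM in WT and at 1.77, 0.605 and 0.586 FPKM in Scd-1-/- libraries, or 110, 34 and 37 counts in the latter. The groups did not overlap, and WT held 1.99 times the Scd-1-/- level in replicate 1 but 11.8 and 16.4 times in replicates 2 and 3. The log2 fold change of -2.73 ± 0.54 (SE, n = 3, adjusted p = 0.118, edgeR's quasi-likelihood test) was the most negative among the members, with an unadjusted p of 0.00105. The block gave -2.77 ± 0.53 (adjusted p = 0.0325), past the thresholds, and so did leaving out WT replicate 1 (-3.04) or Scd-1-/- replicate 1 (-3.47).

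Both genes are known from fibroblasts and other stromal cells. The 7 stromal markers summed to 0.102 to 0.209 FPKM in WT and 0.0894 to 0.213 FPKM in Scd-1-/- libraries, with 3 of the 7 at 0 throughout, Dcn among them. These sums overlapped between genotypes. Whether stromal cells had a part in the values of either gene was not tested.

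Serping1, the inhibitor of complement C1, lies on the minus strand at chr2:84765387-84775444. It had 1 count in Scd-1-/- replicate 1 and 0 counts in the other 5 libraries, under the limit of 3 counts, so no difference was detectable at this depth and no fold change is given.

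**Figure D3:**
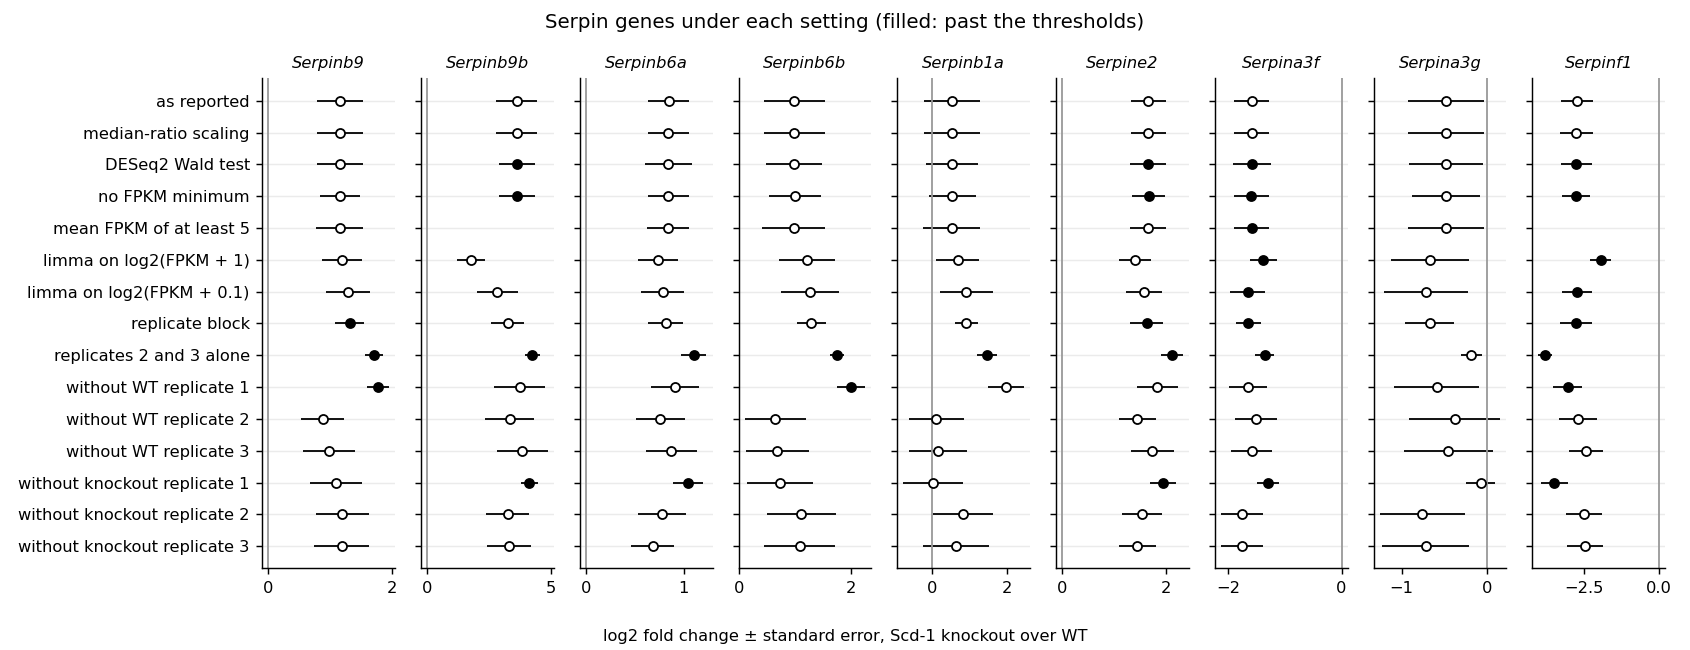
Log2 fold change ± SE, Scd-1-/- over WT, of the 9 tested serpin genes under each setting of the fit, with filled circles for values past the thresholds and a separate horizontal scale per gene. No estimate changes sign, and the row of replicates 2 and 3 alone holds the most filled circles (8 of 9).

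By level, the order of the members differed between genotypes. In WT Teff the means ± SD (n = 3) ran from Serpina3g (24.0 ± 3.91 FPKM) and Serpinb6b (22.1 ± 19.0) through Serpinb6a (10.1 ± 1.08), Serpinb9 (9.09 ± 5.36), Serpina3f (8.90 ± 0.94), Serpinf1 (6.76 ± 3.07), Serpine2 (4.42 ± 1.26) and Serpinb1a (4.17 ± 4.50) to Serpinb9b (0.394 ± 0.156). Neighbours in that order differed by less than the larger SD of the pair in every case, although all WT libraries of Serpinb9b lay below those of Serpinb1a. In Scd-1-/- Teff Serpinb6b led (43.7 ± 12.04 FPKM), followed by Serpinb9 (20.2 ± 1.53), Serpinb6a (17.8 ± 4.66), Serpina3g (17.0 ± 9.62), Serpine2 (13.8 ± 5.21), Serpinb1a (6.00 ± 3.19), Serpinb9b (4.85 ± 3.59), Serpina3f (2.94 ± 1.14) and Serpinf1 (0.988 ± 0.681). Neighbours differed by more than the larger SD at Serpinb6b and Serpinb9, at Serpine2 and Serpinb1a, and at Serpina3f and Serpinf1, and only Serpinb6b was above its neighbour in all libraries. Within each genotype, the place of Serpina3g in replicate 1 differed from that in replicates 2 and 3. It was the highest member in WT replicates 2 and 3 and next below Serpinb6b in WT replicate 1. In Scd-1-/- replicates 2 and 3 it was likewise next below Serpinb6b, above Serpinb9 and Serpinb6a. In Scd-1-/- replicate 1 it was also below Serpinb9, Serpinb6a, Serpinb1a and Serpine2.

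Genes whose levels followed a member most closely over the 6 libraries were ranked by Pearson's r of log2 CPM, without a test, since all share the same libraries and the split of replicate 1. For Serpinb9 they were Atp8b4 (r = 0.996), Cobll1 (0.995), Pmaip1 (0.994), Litaf and Pyhin1 (0.993 each). For Serpinb6b they were Eogt (0.998), Napsa (0.997), Gpr65 (0.996), Rom1 and Gm17767 (0.995 each). Those of Serpina3g were Fam53b (0.996), Edem3 and Ighd4-1 (0.988 each), Trav9-4 (0.987) and Cpne1 (0.982). All 5 of the Serpina3g set were lowest in Scd-1-/- replicate 1, as Serpina3g itself was, which follows from their choice by r.

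The proteases that these serpins face were read from lists by function. Of 11 granule genes (granzymes and perforin), 9 were tested and 5 were past the thresholds, all higher in Scd-1-/- Teff (0.499% of all genes tested were). With the block 8 of the 9 passed (1.19% of all genes), and the median log2 fold change without it was 3.44. The study described most of these genes from the same libraries, so their direction is not independent evidence. Gzma, the target named for Serpinb6b, had a log2 fold change of 1.81 ± 0.29 and was past the thresholds. Gzmb, the target of Serpinb9, was at 2496, 2428 and 2668 FPKM in WT and at 3509, 4955 and 5416 FPKM in Scd-1-/- libraries. Its log2 fold change of 0.89 ± 0.17 was under the fold threshold. With replicates 2 and 3 alone it was 1.06 and passed the thresholds, as 2.25% of all genes tested did as higher.

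Set against its inhibitor, Gzmb held 164, 466 and 389 times the FPKM of Serpinb9 in WT replicates 1, 2 and 3 and 160, 257 and 280 times in the Scd-1-/- libraries. The ranges overlapped, and the ratio was lower in Scd-1-/- within each number. The FPKM of Gzma over Serpinb6b was 9.70, 43.6 and 19.8 in WT and 16.6, 36.5 and 42.8 in Scd-1-/- libraries, with no common direction within a number. A ratio of FPKM compares RNA levels, not proteins.

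Of 21 cathepsins and other proteases, 9 were tested and 0 passed the thresholds in edgeR's quasi-likelihood test (4 had an unadjusted p under 0.05, against 10.1% of all genes tested), with a median log2 fold change of 0.06. With the block Mcpt8, a protease of basophils, passed as higher (1.19% of all genes tested), as it did by DESeq2 (1.08%). Ctsb and Ctsl, targets of Serpina3g, had log2 fold changes of -0.06 ± 0.15 and -0.07 ± 0.33. The FPKM of Ctsb over Serpina3g was 4.86, 2.83 and 2.88 in WT and 14.5, 3.16 and 3.33 in Scd-1-/- libraries, with Scd-1-/- replicate 1 far above the rest. Ctsd, an aspartic protease outside the usual reach of serpins, had a log2 fold change of 0.77 ± 0.14 with groups that did not overlap. Ctss, a cysteine cathepsin, was at 32.1, 28.9 and 31.6 FPKM in WT and at 19.2, 20.8 and 21.3 FPKM in Scd-1-/- libraries, with no overlap. Its log2 fold change was -0.57 ± 0.14 (adjusted p = 0.206, edgeR's quasi-likelihood test; 0.0414 with the block). Of the 10 cystatins and stefins, which block cathepsins too, 3 were tested (Cst3, Cst7 and Cstb) and 0 passed in edgeR's quasi-likelihood test with or without the block or by DESeq2. An unadjusted p under 0.05 was found for 1 (Cst3), and their log2 fold changes lay between 0.08 and 0.38. Cst3 and Cstb were higher in Scd-1-/- libraries with groups that did not overlap (7.67% of all genes tested), with log2 fold changes of 0.38 ± 0.15 and 0.20 ± 0.12.

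**Figure D4:**
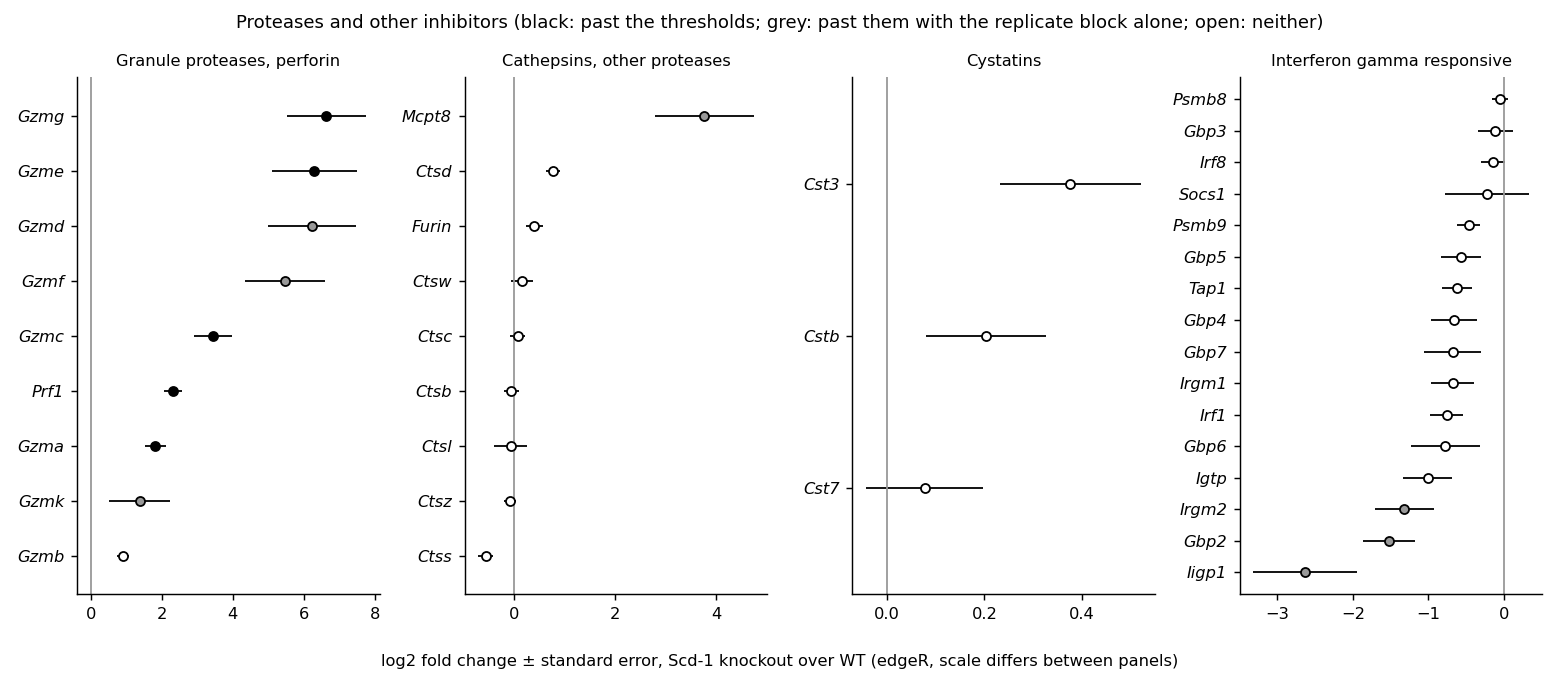
Log2 fold change ± SE, Scd-1-/- over WT, of tested genes in 4 lists, with black circles past the thresholds, grey circles past them with the replicate block alone, and a separate horizontal scale per panel. Granule genes lie above 0 (9 of 9), plotted interferon gamma responsive genes lie below it, and cathepsins and cystatins mostly near 0.

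Serpina3f and Serpina3g are known as genes that interferon gamma induces, so a list of 20 genes responsive to this cytokine was read beside them. The study reported more interferon gamma RNA and protein in T cells of Scd-1-/- mice, measured after stimulation with an activation cocktail and not in these libraries. All 17 that were tested had a log2 fold change under 0, with a median of -0.68 (all genes tested, -0.0005), and 9 had groups that did not overlap, all lower in Scd-1-/- Teff (8.32% of all genes tested). In edgeR's quasi-likelihood test 0 of the 17 passed the thresholds and 9 had an unadjusted p under 0.05 (10.1% of all genes tested), whereas with the block Gbp2, Irgm2 and Iigp1 were among those that did (0.717% of all genes were lower and past them) and 10 had an adjusted p under 0.05 (4.7%). DESeq2 put 4 of the 17 past the thresholds, all lower (0.592% of all genes tested). Gbp2, a guanylate-binding protein, was at 32.7, 77.7 and 81.8 FPKM in WT and at 16.1, 23.9 and 25.8 FPKM in Scd-1-/- libraries. Replicate 1 was the lowest library of each genotype for Gbp2, as it was for Serpina3f and Serpina3g. Not all genes of the list shared that order: Tap1 and Irf8 were highest in replicate 1 of each genotype.

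Some markers of other cells differed between the same libraries. The 6 natural killer cell genes summed to 17.1, 13.2 and 16.1 FPKM in WT and 27.7, 59.4 and 60.1 FPKM in Scd-1-/- libraries. Of the 5 tested, 2 (Klre1 and Tyrobp) passed the thresholds as higher (0.499% of all genes tested), and 4 did with the block (1.19%). Ncr1, the defining receptor, was at most 0.221 FPKM. The 5 mast cell and basophil genes summed to 2.36, 1.17 and 1.45 FPKM and 1.89, 13.3 and 12.3 FPKM, with Ms4a2 at 0 throughout. Mcpt8 and Cpa3 made up most of the high sums, while Kit was at 0.885, 0.231 and 0.369 FPKM in WT and at 0.362, 0.263 and 0.185 FPKM in Scd-1-/- libraries. Serpinb9b, Serpinb6a and Serpine2 were highest in the same libraries, Scd-1-/- replicates 2 and 3. The summed level of the 8 myeloid markers was highest in replicate 1 of each genotype, as Serpinb9, Serpinb6b and Serpinb1a were, with 17.3, 8.13 and 8.53 FPKM in WT and 29.0, 11.6 and 10.2 FPKM in Scd-1-/- libraries, most of it Cd68. Cd14 did not follow that order, with 0.461, 0.227 and 0.179 FPKM in WT and 1.144, 1.894 and 1.604 FPKM in Scd-1-/- libraries. Its mean lay under the minimum of 1 FPKM, and in the fit of all genes with a count it passed the thresholds, with a log2 fold change of 2.40 ± 0.52 (adjusted p = 0.0955, edgeR's quasi-likelihood test), as 0.861% of those genes did. Csf1r was at most 0.0484 FPKM and had a count in 1 library, Scd-1-/- replicate 2. The 6 B cell markers summed to 10.9, 9.44 and 10.3 FPKM in WT and 8.05, 3.15 and 3.68 FPKM in Scd-1-/- libraries, with 3 of the 6 at 0 throughout. Nearly all of these sums was Cd79b, while Cd22 was at most 0.158 FPKM and Cd79a at most 0.0882 FPKM. Whether cells of these types had a part in the serpin values was not tested.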

How the data were processed

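RNA-seq libraries of CD8+ Teff, 3 WT and 3 Scd-1-/-, were grouped by the genotype in the sample labels. The authors aligned reads with HISAT2 and quantified them with StringTie 1.3.0 on GRCm38, and deposited raw counts per gene for 34745 Ensembl genes. The authors also deposited an FPKM value per gene, which is the count scaled to gene length and library total and holds no TMM factor. The methods name a stranded total RNA kit and the labels a poly(A) kit that is not stated to be stranded, and the handling of reads that match several genes is not given in the sources used here.

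Counts were tested with edgeR 4.0.16 (quasi-likelihood test, TMM scaling, genotype alone) on the 9627 genes whose mean FPKM was 1 or more, with Benjamini-Hochberg adjustment over all of them. Thresholds were an absolute log2 fold change of at least 1 and an unadjusted p under 0.001, as in the study, beside an adjusted p under 0.05. A second fit, to the 17192 genes counted in any library, served genes below that minimum. The alternatives were median-ratio scaling, DESeq2 1.42.0, no FPKM minimum or a minimum of 5, limma 3.58.1 on log2(FPKM + 1) and log2(FPKM + 0.1), the replicate number as a block, replicates 2 and 3 alone, and leaving out each library. Deviations from the group means correlated across genes between same-numbered libraries (r = 0.583, 0.297 and 0.459 for replicates 1, 2 and 3). Numbers 2 and 3 also correlated with each other. WT replicate 3 with Scd-1-/- replicate 2 gave r = 0.357, and WT replicate 2 with Scd-1-/- replicate 3 gave 0.173. Replicate 1 thus stood apart, while numbers 2 and 3 were not clearly told apart. The numbers were taken to pair the libraries, although no source says what a number stands for. The fits were tested on simulated counts. Libraries of 1 group differed by more than sampling noise (chi-square per degree of freedom of 12.2 to 62.1).

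The members, gene lists and tests were chosen with earlier results of these data known. Genes named are the 10 members, the other serpin gene above the FPKM minimum, genes of the lists, Scd1, and for Serpinb9, Serpinb6b and Serpina3g the 5 tested genes with the highest r. Some genes of the lists and of the serpin family are not reported here. Genes overlapping Serpinb6a, and serpin genes under the FPKM minimum, were named after their values were seen. Positions are from GENCODE M21 on GRCm38, matched by Ensembl identifier for 34267 genes (98.62%). Upstream sequences are from RefSeq (GRCm38.p6), where 8 of the 10 members had a window.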

Additional observations from a re-analysis of the deposited data

How the results depend on the processing

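All 124 log2 fold changes of the 9 members under the alternatives kept their sign, 33 of them past the thresholds where the reported fit put 0. The count of members past the thresholds was 0 with median-ratio scaling, 4 with DESeq2, 4 without an FPKM minimum, 1 of 7 with a minimum of 5, 2 with limma at either pseudocount, 4 with the replicate block and 8 with replicates 2 and 3 alone. Leaving out single libraries gave 0 to 5: 3 without WT replicate 1 and 5 without Scd-1-/- replicate 1, and 0 without any other. Over all genes, 71 passed, against 161 with DESeq2, 148 without a minimum, 43 with a minimum of 5, 184 with the block, 369 with replicates 2 and 3 alone and 25 to 163 when single libraries were left out (143 without WT replicate 1, 163 without Scd-1-/- replicate 1, at most 31 otherwise). Of the 18 serpin genes with a count, 4 passed in the fit to all genes, 0 with limma at either pseudocount, 7 with the block, 10 with replicates 2 and 3 alone, 0 of the 10 with a mean FPKM of at least 1, 1 of the 7 with at least 5, and 0 to 7 when single libraries were left out (7 without WT replicate 1, 1 without WT replicate 2, 0 without Scd-1-/- replicate 2). The count of the 9 granule genes, 5 as reported, was 1 to 8 when single libraries were left out, and each of the 6 libraries moved it by more than 1.5 times. For the 17 interferon gamma responsive genes, 0 as reported, it was 2 without WT replicate 1 and 5 with replicates 2 and 3 alone. Without an FPKM minimum it was 1 of 19. For the 9 cathepsins and other proteases, also 0 as reported, it was 1 without Scd-1-/- replicate 1 and 1 with replicates 2 and 3 alone. The cause of these shifts was not tested. Apart from the calls given with the block above, the pairing changed none among the members. With 3 libraries a group, an exact permutation test of 1 gene could not go below p = 0.1, and counts under 3 could not be told from 0.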

Other observations

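Of the 69 serpin genes, 51 had no count in any library. Serpinc1, antithrombin, had 50, 69 and 80 counts in WT and 44, 40 and 51 in Scd-1-/- libraries (log2 fold change -0.62 ± 0.33 in the fit without an FPKM minimum), and Serpini1, neuroserpin, 56, 37 and 32 counts and 68, 32 and 42 counts (0.13 ± 0.39). A further 5 serpin genes, Serping1 among them, held 1 to 12 counts over all 6 libraries together.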
